A study of Homo sapiens with 6 samples.

Results

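The genes described here are 10 genes that mark leukaemia stem and progenitor cells: the surface receptors and antigens KIT, FLT3, CD34, CD38, PROM1 and CD33, and the transcription factors MEIS1, HOXA9, HOXA10 and ERG. They were picked by gene symbol, not by a measured value, but with earlier results of these data known. All were followed through the 6 libraries of the series. Of the 10 genes, 9 have a row in at least 1 of the 3 deposited tables, which together list 26704 genes, and KIT has no row in any. CD38, MEIS1, HOXA9, HOXA10 and CD33 had enough reads to be tested, 5 of 10. The cells transcribed the HOXA, MEIS1, CD33 and CD38 part of this set, while the stem cell antigens CD34 and PROM1 and the receptor FLT3 were at 0 reads in untreated cells. CD38 varied the most of the 5 tested genes, from 55.4 in 1 BOR library to 352.3 normalised reads in the VEM+BOR library, but no member passed the test in any comparison.

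SKM-1 is an established human line of acute myeloid leukaemia that followed a myelodysplastic syndrome. Poly-A RNA was sequenced from cells that received no treatment (2 libraries, untreated 1 and 2), BOR (2 libraries, BOR 1 and 2), VEM (1 library) or VEM with BOR (1 library, VEM+BOR). VEM is vemurafenib, an inhibitor of RAF kinases, and the labels do not spell out BOR. All groups are the same line, and the sources used here state neither dose nor duration. The labels do not tell whether replicate libraries are separate cultures, so p-values measure only how far these libraries spread, and that spread may be technical. Between 17252404 and 18507606 reads were assigned to genes in each library. BOR 2 stood apart: over 15462 genes its log2 values correlated with those of the other 5 libraries at r = 0.861 to 0.880, while those 5 correlated with each other at 0.964 to 0.985. BOR differences of the members and the medians of the wider lists are therefore given with and without it, and single genes of those lists by their value in each BOR library. Between replicates the chi-square per degree of freedom was 45.4 (untreated 1 and 2) and 293 (BOR 1 and 2). Values are normalised read counts, reads divided by 1 size factor per library. Where all 6 libraries are set side by side they are on 1 common scale, and each test uses the values of 1 deposited table. In RNA from whole cultures, fewer cells of a type and less RNA per cell cannot be told apart.

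As background, CD34, PROM1 (CD133) and the receptor tyrosine kinases KIT and FLT3 are found on blood stem and progenitor cells, and primitive leukaemia cells are often defined as CD34+ and CD38-. HOXA9 and HOXA10 are homeodomain transcription factors of early progenitors that are normally turned down as myeloid cells mature. MEIS1 is a cofactor that binds DNA with HOX and PBX proteins and, with HOXA9, drives many acute leukaemias, and ERG is an ETS factor of stem cells. CD33 is a sialic acid binding receptor of myeloid cells, and CD38 is an ectoenzyme that consumes NAD and rises as progenitors commit. Both CD33 and CD38 are targets of therapeutic antibodies.

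At this depth the stem cell receptors and antigens were at or near the limit of detection. FLT3 (chr13:28003274-28100592 of GRCh38, minus strand) had 0 reads in both untreated libraries, 0 in BOR 1 and 2 in BOR 2, and has no row in the tables with VEM and VEM+BOR. CD34 (chr1:207880972-207911402, minus strand) had 0 reads in both untreated libraries, 4 in BOR 1 and 3 in BOR 2, and no row in the other 2 tables. PROM1 (chr4:15963076-16084378, minus strand) had 0 reads in the untreated libraries and in BOR 2, 2 in BOR 1 and 2 in VEM+BOR, with no row in the VEM table. A table lists a gene only from 2 reads upward, summed over its libraries. A count of 0 allows up to 3 reads, which is 0.162 to 0.174 CPM (reads scaled to the library total) across the 6 libraries, a limit that covers counting error only. None of the 3 genes could be compared between groups. CD34 was above both untreated libraries in both BOR libraries, at counts that touch the same limit. FGFBP2, a gene that lies within the PROM1 locus on the same strand and overlaps it by 6234 bases, had 69 and 77 reads in the untreated libraries, 74 in BOR 1, 290 in BOR 2, 44 in VEM and 111 in VEM+BOR, so BOR 2 was its high library.

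ERG (chr21:38380027-38661780, minus strand) was only just detected. It had 2 and 9 reads in the untreated libraries, 4 in BOR 1, 0 in BOR 2, 7 in VEM and 6 in VEM+BOR. The untreated pair alone spans all treated values above 0, so no difference was detectable at this depth.

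HOXA9 and HOXA10 were the most abundant of the transcription factors in the set. They are neighbours on the minus strand of chromosome 7, HOXA9 at chr7:27162435-27175180 and HOXA10 at chr7:27170591-27180261, and their annotated spans overlap by 4590 bases, although they share 0 exon bases. The antisense gene HOXA10-AS covers 13.9% of the exon bases of HOXA9 and 16.4% of those of HOXA10, and because no strand-marking step is named, reads there cannot be told apart by strand. It had 91 and 97 reads in the untreated libraries, 97 in BOR 1, 37 in BOR 2, 75 in VEM and 111 in VEM+BOR, few beside either HOXA gene. These counts do not show how reads in the shared exon bases were assigned, so they set no bound on what the overlap adds or removes.

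HOXA9 was high in every library. On the common scale it was 1160 and 1504 in the untreated libraries, 1356 in BOR 1, 1156 in BOR 2, 1622 in VEM and 1784 in VEM+BOR. VEM and VEM+BOR were above both untreated libraries and BOR 1 lay between them, and the whole range was 1.54-fold. HOXA10 was 771.4 and 819.8 in the untreated libraries, 933.2 in BOR 1, 493.4 in BOR 2, 927.3 in VEM and 897.3 in VEM+BOR. BOR 1, VEM and VEM+BOR lay within a narrow band above both untreated libraries, and BOR 2 was the low value. Per kilobase of gene length, HOXA9 exceeded HOXA10 in all 6 libraries, by 1.84-fold and 2.25-fold in the untreated cells, 1.78-fold in BOR 1, 2.87-fold in BOR 2, 2.14-fold in VEM and 2.43-fold in VEM+BOR. The ratio in BOR 2 was the widest of the 6 and came with the low HOXA10 value, while VEM lay between the untreated ratios and BOR 1 just below them.

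MEIS1 (chr2:66433452-66573869, plus strand) was present at a low level and did not follow the HOXA genes. Its normalised count on the common scale was 118.1 and 64.7 in the untreated libraries, 80.5 in BOR 1, 66.2 in BOR 2, 67.3 in VEM and 89.9 in VEM+BOR. All 4 treated values lay between the 2 untreated ones, and untreated 2 was 0.86 below untreated 1 on the log2 scale. MEIS1-AS3, an antisense gene that overlaps it by 19 bases, had at most 11 reads in any library.

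CD38 (chr4:15778275-15853230, plus strand) gave the widest spread of the tested members. Its normalised count on the common scale was 152.7 and 109.8 in the untreated libraries, 200.9 in BOR 1, 55.4 in BOR 2, 272.9 in VEM and 352.3 in VEM+BOR. VEM, VEM+BOR and BOR 1 were above both untreated libraries and BOR 2 was below both, a 6.36-fold range. The numbers of reads behind these values were 172 and 112 untreated, 217 in BOR 1, 41 in BOR 2, 296 in VEM and 384 in VEM+BOR.

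CD33 (chr19:51225064-51243860, plus strand) varied little outside BOR 2. It was 1426 and 1257 in the untreated libraries, 1524 in BOR 1, 909.8 in BOR 2, 1268 in VEM and 1517 in VEM+BOR on the common scale. VEM lay between the untreated values on this scale, VEM+BOR and BOR 1 were just above both, and BOR 2 was below both. Per kilobase of gene length, the untreated levels ordered as HOXA9 at 440 ± 80.3 normalised reads (SD, n = 2), CD33 at 225 ± 20.04, HOXA10 at 215 ± 9.24, CD38 at 19.1 ± 4.42, MEIS1 at 8.36 ± 3.45 and ERG at 0.699 ± 0.657. CD33 and HOXA10 did not differ beyond the spread of the untreated pair, so their order cannot be read from 2 libraries.

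**Figure D1:**
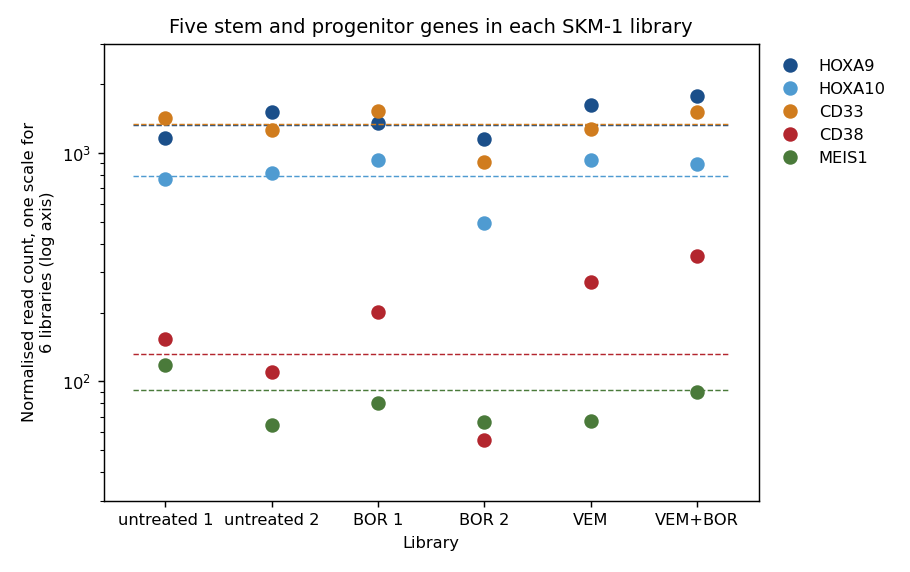
Normalised read counts of the 5 tested members (log axis, 1 common scale) in each of the 6 libraries, 1 point per gene and library, with dashed lines at the mean of the untreated pair. CD38 moves from 55.4 in BOR 2 to 352.3 in VEM+BOR, while HOXA9 stays between 1156 and 1784.

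The promoters of CD38 and HOXA9 are printed because these members had the widest and the narrowest range. The RefSeq table (GRCh38.p14) has an entry for all 10 members, and the 250 bases before each start were searched on both strands for 5 motifs. The letters TATAAA, the TATA box, were found in 10.7% of all 35116 promoters. The letters CCAAT, a box bound by NF-Y, were found in 32%, and the GC box, GGGCGG, was found in 42.6%. A composite site for PBX and HOX proteins, TGATTNAT, was found in 2.48%, and the core site of MEIS proteins, TGACAG, in 13%. For CD38 the bases shown lie upstream of its annotated span, at chr4:15778078-15778274 (plus strand). For HOXA9 they lie before the RefSeq start, at chr7:27165538-27165787 (minus strand), a window inside the annotated HOXA9 span given above. Bases from the gene's first annotated exon base in the window onward were left out. Both are shown in the direction of transcription, with motif matches in capitals:
CD38: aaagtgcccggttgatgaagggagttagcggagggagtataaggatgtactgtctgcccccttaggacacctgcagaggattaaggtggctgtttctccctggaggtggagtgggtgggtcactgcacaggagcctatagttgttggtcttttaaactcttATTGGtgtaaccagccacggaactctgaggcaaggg
HOXA9: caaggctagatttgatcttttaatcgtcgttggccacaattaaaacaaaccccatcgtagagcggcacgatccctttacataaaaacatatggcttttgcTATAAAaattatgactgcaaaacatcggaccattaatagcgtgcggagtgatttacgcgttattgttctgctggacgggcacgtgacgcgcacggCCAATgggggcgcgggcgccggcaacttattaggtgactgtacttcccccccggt
CD38 held a CCAAT match and HOXA9 a TATA and a CCAAT match. Both start sites of HOXA10 held the same 2 motifs, and no start site of any member held the PBX-HOX or the MEIS letters. The CpG count was 3 for CD38 and 2 for CD33, against a median of 11 over all promoters, and 20 for HOXA9, 19 and 24 for HOXA10 and 16 for MEIS1. These matches are descriptions of the letters in a window and were not tied to any measured binding.

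With vemurafenib, 0 of the 5 tested members were called at an adjusted p under 0.05, where 0.0446% of 15689 genes were called by limma. CD38 showed the largest difference of the 5, 293.3 normalised reads in the VEM library against 164.0 and 119.2 in the untreated libraries (141.6 ± 31.7, SD, n = 2). It was 2.09-fold higher, a log2 difference of 1.06 with a standard error of 0.49 and 2 standard errors either side reaching from 0.08 to 2.05 (limma adjusted p = 1). HOXA9 was 1744 against 1246 and 1633 (log2 difference 0.29, SE 0.37), and HOXA10 was 996.7 against 828.6 and 889.9 (0.21, SE 0.37). CD38 was the 1 member of 5 with an unadjusted p under 0.05, as were 2.54% of all genes. CD33 was 1363 against 1532 and 1365, a log2 difference of -0.08, so the VEM library all but matched untreated 2. MEIS1 was 72.3 against 126.8 and 70.3 (-0.38, SE 0.60). Of the 5 genes, CD38, HOXA9 and HOXA10 were above both untreated libraries, where 30.3% of all genes were, and CD33 was below both, where 27.6% were. The median difference of the 5 was 0.21 against 0.00 for all genes. The single VEM library is assumed to vary like the untreated pair.

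With VEM and BOR together, again 0 of 5 members were called by limma, where 0.192% of 15606 genes were. CD38 was 377.9 normalised reads against 164.7 and 119.3 (142 ± 32.1, SD, n = 2), 2.68-fold higher, and this was the largest difference of the 5 tested members in any comparison. Its log2 difference was 1.42 with a standard error of 0.48, reaching from 0.46 to 2.38 at 2 standard errors (limma adjusted p = 0.688). It was again the 1 member of 5 with an unadjusted p under 0.05, as were 3.01% of all genes. The authors' deposited table gives CD38 a log2 fold change of 1.41 and an adjusted p of 0.714 in this comparison, and 1.05 and an adjusted p of 1 for VEM. HOXA9 was 1913 against 1252 and 1635 (log2 difference 0.42, SE 0.37, adjusted p = 1), HOXA10 was 962.6 against 832.2 and 890.9 (0.16, SE 0.37), and CD33 was 1627 against 1539 and 1366 (0.17, SE 0.36). These 4 genes were above both untreated libraries, where 30.1% of all genes were, and MEIS1, at 96.5 against 127.4 and 70.3, lay between them (0.03, SE 0.58). No member was below both, where 27.9% of all genes were. The median of the 5 was 0.17 against 0.01 for all genes. This library too is alone in its group and is assumed to vary like the untreated pair.

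With BOR the 2 libraries lay on opposite sides of the untreated pair for 3 of the 5 tested members. Set against 146.4 and 106.5 untreated, CD38 was 194.2 in BOR 1 and 53.5 in BOR 2, HOXA10 was 902.3 and 476.7 against 739.6 and 795.0, and CD33 was 1473 and 878.9 against 1368 and 1219. In CD38, HOXA10 and CD33 BOR 1 was above both untreated libraries, as for 30.4% of all genes, and BOR 2 below both, as for 41.5%. HOXA9 was 1311 and 1117 against 1112 and 1459, and MEIS1 was 77.9 and 64.0 against 113.2 and 62.8, all 4 values between those of the untreated pair. HOXA9 in BOR 2 was within 5 normalised reads of untreated 1, just above it in this table and just below it on the common scale. In 0 of the 5 members were both BOR libraries on the same side of the untreated pair, where 11.7% of genes were above and 8.24% below. Limma called 0 of 5 members, with an adjusted p of 0.971 to 0.986, and 0% of 15382 genes, of which 38 (0.247%) had an unadjusted p under 0.05. On recovered reads edgeR called 0 genes with 156 unadjusted, and DESeq2 35 with 396, none of them a member. The log2 differences were -0.29 (SE 0.76) for CD38, -0.25 (SE 0.62) for MEIS1, -0.23 (SE 0.51) for HOXA10, -0.18 (SE 0.48) for CD33 and -0.07 (SE 0.44) for HOXA9. Without BOR 2 they became 0.63 for CD38, 0.23 for HOXA10, 0.19 for CD33, 0.04 for HOXA9 and -0.11 for MEIS1, so 4 of the 5 changed sign. Without BOR 1, CD38 was at -1.21 (limma adjusted p = 0.112), HOXA10 at -0.68, CD33 at -0.55, MEIS1 at -0.39 and HOXA9 at -0.19, and the count over all genes went from 0 to 4008.

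**Figure D2:**
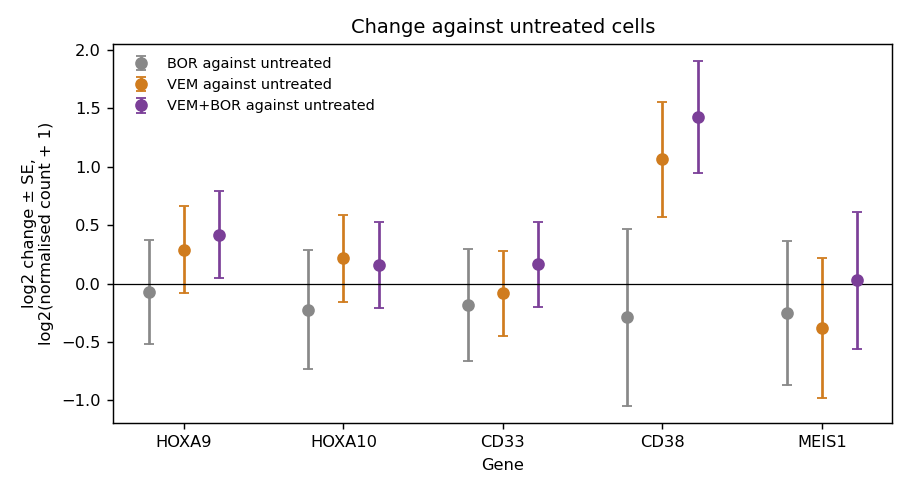
Log2 difference from untreated cells for the 5 tested members, with points for each comparison and bars of 1 standard error from limma. CD38 stands at 1.06 with VEM and 1.42 with VEM+BOR, and of the other bars only that of HOXA9 with VEM+BOR (0.42, SE 0.37) does not cross 0.

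The 3 comparisons share the 2 untreated libraries, so their differences are not independent, and treated libraries were set beside each other on the common scale without a test. CD38 in VEM+BOR was 0.37 above VEM, 0.81 above BOR 1 and 2.65 above BOR 2 on the log2 scale, whereas untreated 2 differed from untreated 1 by -0.47. The step from VEM to VEM+BOR was thus smaller than the gap within the untreated pair. HOXA9 in VEM+BOR was 0.14 above VEM, 0.39 above BOR 1 and 0.63 above BOR 2, beside 0.37 between the untreated libraries. HOXA10 in VEM+BOR was -0.05 from VEM, -0.06 from BOR 1 and 0.86 above BOR 2, beside 0.09 between the untreated libraries. For these genes and CD33 the gap to BOR 2 was the wide one. CD33 in VEM+BOR was 0.26 above VEM, -0.01 from BOR 1 and 0.74 above BOR 2, beside -0.18 between the untreated libraries. MEIS1 in VEM+BOR was 0.41 above VEM, 0.16 above BOR 1 and 0.44 above BOR 2, all less than the 0.86 by which untreated 2 was below untreated 1.

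The wider HOX family and its cofactors formed a graded series, with the 2 HOXA members near the top in most libraries. Per kilobase, the cofactor gene PBX2 was above HOXA9 in each of the 6 libraries. In BOR 2, HOXA11 and HOXB4 were above HOXA10. Per kilobase, HOXA9 was the highest HOXA or HOXB gene in each of the 6 libraries, and HOXB5, HOXB8, HOXB9 and HOXA13, named after their values were seen, had fewer than 5 normalised reads in any library. Of 25 HOX, PBX, MEIS and PKNOX genes beside the members, 18 were tested with VEM, 0 were called, 10 were above both untreated libraries and 1 was below both (median 0.18), where 30.3% of all genes were above and 27.6% below. With VEM+BOR 6 of 18 were above and 5 below (median 0.04), beside 30.1% and 27.9% of all genes. With BOR 1 of 17 was above and 1 below (median -0.03, or 0.06 without BOR 2), beside 11.7% and 8.24%. HOXB3, a HOX gene of the HOXB cluster, was 509.3 with VEM and 513.8 with VEM+BOR, against 417.6 and 338.5 untreated in the VEM table and 419.5 and 338.9 in the VEM+BOR table. HOXB4, known for its ability to expand blood stem cells, was 800.2 with VEM+BOR against 510.4 and 691.6. PBX3, a HOXA9 partner in leukaemia, was 364.2 with VEM+BOR against 277.7 and 251.5. All 3 were above the untreated pair by 0.43 to 0.46 on the log2 scale with standard errors of 0.39 to 0.43, more than 1 standard error and less than 2, and none was called. HOXA7 and HOXA11 separated the BOR libraries: HOXA7 was 68.9 in BOR 1 and 15.7 in BOR 2 (untreated 53.6 and 80.8), and HOXA11 was 270.3 and 650.3 (untreated 228.1 and 301.5).

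**Figure D3:**
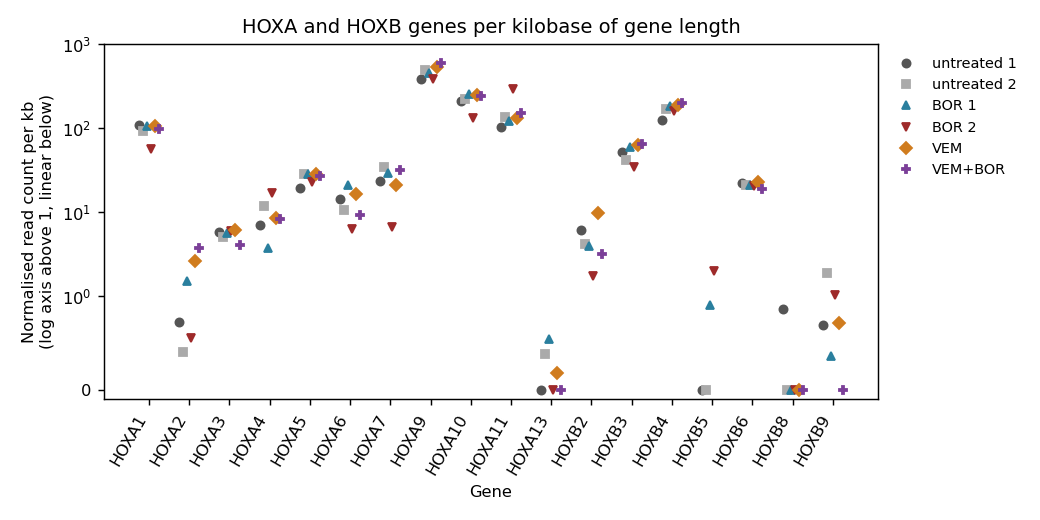
Normalised read count per kilobase of gene length for HOXA and HOXB genes (log axis above 1, linear below), 1 marker per library. HOXA9 is the highest gene in all 6 libraries, with HOXA10 at 133 in BOR 2 and 208 to 252 in the others.

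Chromatin regulators known to act on HOX genes were all listed and tested, 14 of 14, with 0 called in each comparison. The list mixes activators such as KMT2A and DOT1L with the Polycomb silencers EZH2 and BMI1, so its median carries no direction for HOX control. With VEM 3 were above and 3 below the untreated pair (median -0.04), beside 30.3% and 27.6% of all genes. With VEM+BOR 7 were above and 2 below (median 0.11), beside 30.1% and 27.9%, and with BOR 1 and 0 (median -0.04, or 0.10 without BOR 2), beside 11.7% and 8.24%. KMT2A, the histone methyltransferase rearranged in many HOXA9-high leukaemias, was 792.6 with VEM against 1774 and 1051 untreated (log2 difference -0.78, SE 0.39, limma adjusted p = 1). With VEM+BOR, KMT2A was 1117 on the common scale, between the untreated 1651 and 967.9. PSIP1, the chromatin tether of the menin and KMT2A complex, was 3340 in BOR 1 and 547.2 in BOR 2 (untreated 3099 and 2902).

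Stem cell transcription factors beside ERG were 20 in number, of which 16 were tested with VEM and with BOR and 15 with VEM+BOR, and 0 were called. Their median was 0.02 with VEM, 0.14 with VEM+BOR and 0.05 with BOR, or 0.24 without BOR 2. GATA2, a zinc finger factor needed by blood stem cells, was 4689 with VEM against 2511 and 2767 untreated (log2 difference 0.83, SE 0.38, limma adjusted p = 1). With VEM+BOR it was 6085 against 2522 and 2770 (1.203, SE 0.38, adjusted p = 0.548). Both treated values were above the untreated pair, and neither passed over all genes. IKZF2, the Ikaros family factor Helios, was 590.5 with VEM+BOR against 366.8 and 264.3 (0.92, SE 0.42). It was 601.5 in BOR 1 and 34.0 in BOR 2 (untreated 326.0 and 235.9). With VEM alone it was 257.2 on the common scale, between the untreated 340.0 and 243.2. In the BOR group MECOM, the EVI1 locus of poor-risk leukaemia, was 195.1 in BOR 1 and 7.84 in BOR 2 (untreated 200.9 and 156.9), and MYB was 4654 and 561.5 against 3073 and 3150.

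Of 17 cytokine receptors and ligands beside KIT and FLT3, 9 were tested and 0 called, with medians of 0.08 with VEM, 0.03 with VEM+BOR and 0.18 with BOR (0.17 without BOR 2). CSF1R, the macrophage growth factor receptor of the same receptor class as KIT and FLT3, was 12.9 with VEM against 119.2 and 51.1 untreated (log2 difference -2.51, SE 0.73, limma adjusted p = 0.645). With VEM+BOR it was 19.7 against 119.7 and 51.1 (-1.94, SE 0.70, adjusted p = 0.884). Both were below the untreated pair, which itself spread widely. KITLG, the ligand of KIT, was 134.7 with VEM against 121.1 and 86.2. CSF2RB, the shared chain of the GM-CSF, IL-3 and IL-5 receptors, was 1985 with VEM against 1631 and 1153 (0.53, SE 0.38).

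Other surface antigens of leukaemia stem cells were at 10 of 14 listed, and of the 9 tested with BOR and the 8 tested in each other comparison 0 were called. Their median was -0.01 with VEM, 0.06 with VEM+BOR and 0.36 with BOR, or 0.16 without BOR 2. The 2 BOR medians cover different genes, 9 with BOR 2 and 8 without it. HAVCR2 reached the minimum mean only through BOR 2, at 48.7 normalised reads on the common scale and at most 1.96 in any other library. CD44, the hyaluronan receptor used by leukaemia stem cells for homing, was 8611 with VEM against 6016 and 4573 (log2 difference 0.72, SE 0.42) and 9772 with VEM+BOR against 6042 and 4578 (0.89, SE 0.42, limma adjusted p = 1). It was above both untreated libraries in both BOR libraries as well, at 6348 and 7504 against 5370 and 4086 (0.56, SE 0.45, or 0.44, SE 0.42, without BOR 2). ITGA6, a laminin receptor chain, was 299.9 in BOR 1 and 37.9 in BOR 2 (untreated 326.0 and 192.1). CD70, the ligand of CD27, was 6119 in BOR 1 and 16337 in BOR 2 (untreated 5120 and 6296).

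The LSC17 genes, a score of leukaemic stemness that includes CD34, held 16 genes beside it, of which 13 were listed. With VEM 9 were tested (3 above and 2 below the untreated pair, median -0.10), beside 30.3% and 27.6% of all genes. With VEM+BOR 10 were tested (2 and 4, median -0.21), beside 30.1% and 27.9%. Among those above, ADGRG1 reached the minimum mean of 10 only through the VEM+BOR library, so its place there is no separate observation. On the common scale it was 7.10 and 5.88 untreated and 20.2 in VEM+BOR. With BOR 9 were tested (1 and 1, median 0.12, or -0.10 without BOR 2), beside 11.7% and 8.24%, and 0 were called in each comparison. CDK6, a cell cycle kinase in the score, was 3152 in BOR 1 and 383.9 in BOR 2 (untreated 2921 and 2229). DNMT3B, a DNA methyltransferase in the score, was 819.4 with VEM against 749.5 and 540.8. A further list held siglecs related to CD33, relatives of CD38 and PROM1, and the phosphatases PTPN6 and PTPN11, which are not relatives of the members. Of its 14 genes 4 were tested, SIGLEC10, BST1, PTPN6 and PTPN11, and 0 were called. BST1, the second NAD-consuming ectoenzyme beside CD38, was 83.2 in BOR 1 and 82.3 in BOR 2 (untreated 62.1 and 92.2), and the BOR libraries were alike in it. PTPN11, the phosphatase SHP2 that binds CD33 tails, was 2312 with VEM and 2507 with VEM+BOR, above both untreated libraries, with log2 differences of 0.25 and 0.36 (SE 0.37 for each). The BOR libraries were unlike in PTPN11, at 2146 in BOR 1 and 404.8 in BOR 2 (untreated 1728 and 1752).

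**Figure D4:**
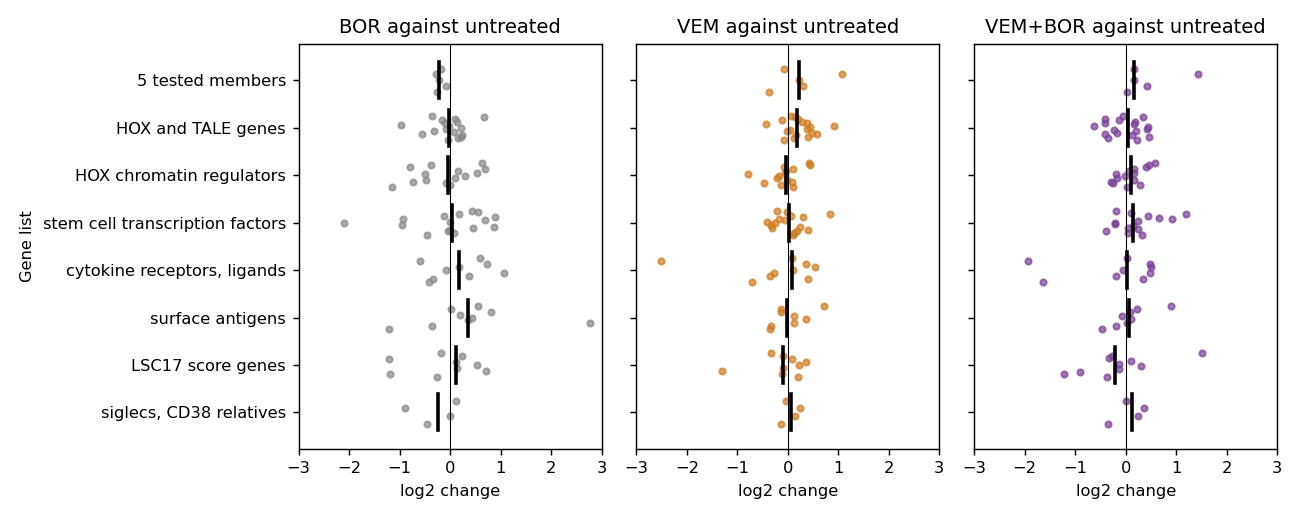
Log2 difference from untreated cells for each tested gene of the member set and of 7 wider lists, 1 panel per comparison, with a bar at each list's median. The medians lie between -0.23 and 0.36 in every panel, and the highest single value, 2.76 for HAVCR2 in the BOR panel, comes from BOR 2 alone (48.7 normalised reads on the common scale, at most 1.96 in any other library).

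Markers of cell identity were read alongside the members. The sum of 8 myeloid blast genes, CD33 among them, was 118292 and 138496 normalised reads in the untreated libraries, 125516 in BOR 1, 160158 in BOR 2, 58605 in VEM and 49124 in VEM+BOR on the common scale. Most of it came from the granule genes PRTN3, ELANE, AZU1 and MPO, each below both untreated libraries in VEM and VEM+BOR. CEBPA was below both too, at 1253 in VEM and 1295 in VEM+BOR against 1875 and 2872. SPI1 lay between the untreated values of 5375 and 7229, at 5440 and 6992. ANPEP was above both, at 1029 and 1180 against 1016 and 806.1. In the libraries with the highest CD38, MPO, the peroxidase of primary granules, was 7041 with VEM against 20082 and 16766 (log2 difference -1.38, SE 0.49, limma adjusted p = 1) and 5136 with VEM+BOR against 20170 and 16784 (-1.84, SE 0.48, adjusted p = 0.196). The monocyte sum was 839.7 and 594.3 untreated, 849.9 in BOR 1, 1693 in BOR 2, 1388 in VEM and 1608 in VEM+BOR. Of the 5 monocyte genes with a row, ITGAM, an integrin of maturing myeloid cells, was 1212 with VEM against 550.2 and 238.4 (1.74, SE 0.46, adjusted p = 0.474) and 1340 with VEM+BOR against 552.6 and 238.7 (1.88, SE 0.45, adjusted p = 0.125). ITGAM made up most of the VEM and VEM+BOR sums, at 1127 and 1249 on the common scale. With BOR, LYZ, the lysozyme of monocytes and granulocytes, was 139.6 in BOR 1 and 81.0 in BOR 2, with 22.1 and 9.51 in untreated cells (2.78, SE 0.73, adjusted p = 0.968), above both untreated libraries in each. FCGR1A, an Fc receptor of monocytes, made up most of the BOR 2 sum, at 948.1 in BOR 2 and 273.9 in BOR 1 (untreated 183.8 and 305.3). On the common scale FCGR1A was 234.1 in VEM and 296.3 in VEM+BOR, between the untreated values of 191.7 and 314.8. LYZ was 14.7 in VEM, between the untreated 23.1 and 9.81, and 45.0 in VEM+BOR, above both. CD14 was at 0 in BOR 1, VEM and VEM+BOR, but at only 1.78 and 2.94 normalised reads untreated, too few to show a fall. CD68 has no row, and CSF1R was the lower value given above. The part of these markers in the CD38 values was not tested. T cell genes summed to at most 1.84 normalised reads, with CD3D, CD3E and CD2 without a row. The sums ran from 109 to 224 for B cell genes, 71.6 to 193 for megakaryocyte genes, 69.6 to 214 for erythroid genes and 44.0 to 175 for stromal or epithelial genes. Mitochondrial genes took 5.40% and 5.26% of reads in the untreated libraries, 4.56% in BOR 1, 3.14% in BOR 2, 4.44% in VEM and 4.23% in VEM+BOR.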

How the data were processed

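The 6 SKM-1 RNA libraries were grouped by their treatment labels. Per the labels, poly-A RNA was captured on beads, copied from random primers and read in pairs of 150 bases, and no step that marks strand is named. The submitters' processing notes name, without roles, the aligner HISAT2 2.0.5, the counter featureCounts 1.5.0-p3, CASAVA, and the packages edgeR 3.22.5 and DESeq2 1.20.0. The sources used here state no genome build. For 26676 of 26704 genes, and for all 9 listed members, the deposited coordinates are those of GENCODE 29 (GRCh38).

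The authors deposited 3 tables, each with a normalised signal per gene and library, in which reads were divided by a size factor for the library. The log2 fold changes and p-values deposited by the authors were used only where their table is named. Dividing a column by its smallest step gave whole numbers, within 0.001, for 100% of values, which were taken as reads. In the VEM column that step is so close to 1 that whole numbers are no check, so VEM had no count test. No per-sample column was left unmapped.

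Tests were two-sided and used limma's trend method (version 3.58.1, R 4.3.3) on log2(value + 1), within 1 table, for genes with a mean of at least 10, and genes with a Benjamini-Hochberg adjusted p under 0.05 over all genes tested were called. This was the plan for normalised values. Log2 differences on this scale understate the change of low genes. Values for all 6 libraries used median-of-ratios factors over 17760 genes. Alternatives were a pseudocount of 5, a mean of at least 1, no filter, library-total scaling, a joint fit of all 6 libraries, DESeq2 1.42.0 or edgeR 4.0.16 on the reads, and leaving out each replicate. The test was tried on simulated data. Named genes are all members, the genes overlapping them, every called list gene and up to 3 genes per list with the largest difference and a mean of at least 50. CD14, CD68 and T cell genes were named as markers, and HAVCR2, ADGRG1, DOT1L and EZH2 after their values were seen. Members and lists were chosen with earlier results of these data known.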

Additional observations from a re-analysis of the deposited data

How the results depend on the processing

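Over 155 recomputed member differences, 144 kept their direction and none passed the threshold, with an adjusted p of 0.112 to 1. CD38 stayed higher in every setting run with VEM (log2 0.83 to 1.31) and with VEM+BOR (1.201 to 1.67). The other 11 changed direction. Settings that only changed the filter on low values left each difference as it was and could not change a direction. For VEM and VEM+BOR, leaving a BOR library out of the joint fit likewise repeated the joint-fit differences. The number that kept direction is therefore no measure of stability by itself. Leaving out 1 library at a time moved BOR from -0.55 to 0.19 for CD33, -1.21 to 0.63 for CD38, -0.68 to 0.23 for HOXA10, -0.27 to 0.12 for HOXA9 and -0.67 to 0.17 for MEIS1. Without BOR 2, HOXA9 was 0.042. In the joint fit without untreated 1, CD33 was 0.013 and MEIS1 0.055 for VEM. MEIS1 for VEM+BOR was -0.071 in edgeR, -0.054 in DESeq2 and -0.39 in the joint fit without untreated 2.

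Counts over all genes moved more. For BOR 35 genes were called by DESeq2, and leaving out 1 library gave 0 to 4008. For VEM, against 7, the count was 0 with a mean of at least 1, with no filter and in the joint fit, 40 with library-total scaling, and 0 to 17 when a library was left out of the joint fit. For VEM+BOR, against 30, it was 0 with a mean of at least 1, with no filter and in the joint fit, 89 with library-total scaling, 87 in edgeR, 64 in DESeq2, and 0 to 50 when a library was left out. The cause was not tested. Library-total scaling moved the median of all genes for BOR from 0.04 to -0.26, and the members to -0.37 (HOXA9) to -0.58 (CD38). Depth limits FLT3, CD34, PROM1 and ERG, at most 9 reads each. The edgeR and DESeq2 fits were not run for VEM. No paired analysis was possible because the replicate numbers only follow accession order.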
